A study of Mus musculus with 4 samples.

Results

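The sodium pump subunits described here were the 4 genes of the beta family, Atp1b1, Atp1b2, Atp1b3 and Atp1b4, and Fxyd1, which encodes phospholemman. They were chosen by gene symbol: every probe set annotated to exactly one of these 5 symbols was taken, dim ones included, which gave 10 of 22626 probe sets and 5 of 12393 named genes. A gene with several probe sets was represented by the one of highest mean log2 signal over all arrays. The set was proposed with earlier results of the same comparison in view, and Atp1b4 was among the largest changes there, so its values below are a description and not independent evidence.

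RNA of gastrocnemius muscle, a calf muscle of mostly fast fibres, was measured on 4 Affymetrix arrays. The MCK-PPARb group held 2 arrays from transgenic mice that overexpress the nuclear receptor PPARbeta (gene Ppard) specifically in muscle, and the non-transgenic group held 2 arrays from wild-type littermates. All mice were 6 weeks of age. MCK is the usual abbreviation of muscle creatine kinase, whose promoter is active in differentiated striated muscle, and the labels do not say how many founder lines were used. Each array is a biological replicate per its label, although the design text leaves room for technical ones, in which case the p-values would measure technical spread alone.

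The sodium pump moves sodium out of the cell and potassium in, and in muscle it restores the ion gradients that every action potential runs down. It is built from a catalytic alpha subunit and a beta subunit, a glycoprotein that folds the pump and carries it to the membrane. Small FXYD proteins attach to it and tune its affinity for ions, and phospholemman is the one best known in heart and skeletal muscle. Atp1b4 is the exception in the family: in placental mammals its product, BetaM, sits in the inner nuclear membrane of perinatal muscle and is no longer a pump subunit.

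Promoter windows are printed for Atp1b4, the one member called changed, and for Fxyd1 and Atp1b1, whose lower values in MCK-PPARb muscle were not called. Atp1b2, also lower and not called, had no window among the sequences used. They are RefSeq sequences of build GRCm38.p6 that run from 250 bases before the annotated start to 50 after it, written in the direction of the gene. Capitals mark matches, on either strand, to an E-box (CANNTG), to a TATA box (TATAAA), to a nuclear receptor half-site (AGGTCA) or to an MCAT site (CATTCC).
Atp1b4, chrX:38315872-38316171, plus strand: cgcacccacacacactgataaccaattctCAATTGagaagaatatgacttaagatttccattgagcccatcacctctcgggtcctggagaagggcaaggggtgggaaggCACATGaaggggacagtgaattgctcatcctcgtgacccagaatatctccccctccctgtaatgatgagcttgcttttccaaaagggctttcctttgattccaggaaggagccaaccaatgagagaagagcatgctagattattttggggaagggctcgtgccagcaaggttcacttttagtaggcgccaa
Fxyd1, chr7:31054804-31055103, minus strand: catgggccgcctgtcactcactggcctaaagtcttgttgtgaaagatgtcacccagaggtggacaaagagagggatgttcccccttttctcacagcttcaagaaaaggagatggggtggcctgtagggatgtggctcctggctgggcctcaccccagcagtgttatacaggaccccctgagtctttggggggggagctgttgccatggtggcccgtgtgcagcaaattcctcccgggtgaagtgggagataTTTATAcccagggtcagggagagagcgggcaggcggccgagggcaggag
Atp1b1, chr1:164458306-164458605, minus strand: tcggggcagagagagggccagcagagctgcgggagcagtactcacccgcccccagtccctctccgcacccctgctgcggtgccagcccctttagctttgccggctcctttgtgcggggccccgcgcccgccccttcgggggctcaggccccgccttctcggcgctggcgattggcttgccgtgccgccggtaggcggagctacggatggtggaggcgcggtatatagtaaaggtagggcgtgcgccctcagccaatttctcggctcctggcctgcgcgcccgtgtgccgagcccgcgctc

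The Atp1b4 window held 2 E-boxes, starting 221 and 141 bases before the annotated start, and 49% of its bases were G or C. The Atp1b1 window held no match to these motifs and was 71% G and C. The Fxyd1 window was 58.7% G and C and held 1 TATA box match, TTTATA in its direction. That match begins 1 base after the annotated start and not upstream of it. The start used for this window lies inside the annotated Fxyd1 gene, which on the minus strand begins at position 31055873. An E-box occurred in 72.3% of the 32851 windows of this length in the table and a TATA box in 13.6%. None of the 3 windows held the half-site bound by many nuclear receptors, which 16.3% of all windows held, nor a direct repeat of that half-site with 1 base between (in 0.0396%), the form known for PPAR binding. None held the MCAT site (14.7% of all windows). Each Atp1b3 window, not printed here, held 1 E-box. A match is a description of letters in the window.

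Ppard itself read 126049 and 98797 in MCK-PPARb muscle, against 2169 and 2825 in non-transgenic muscle, so the overexpressed gene followed the labels. All 7 muscle fibre markers (Ckm, Acta1, Myh4, Tnnt3, Tnni2, Pvalb and Mb) were well represented, with summed signals of 931800 and 827200 on the MCK-PPARb arrays against 1485000 and 834200 on the non-transgenic arrays. The most intense probe sets were unusually strong on non-transgenic replicate 1, where the top 10 took 4.20% of all signal, while they took 2.36% to 2.78% on the other arrays. Log2 signals correlated at r = 0.955 within the MCK-PPARb group, 0.946 within the non-transgenic group and 0.924 to 0.946 between groups, across probe sets, which are not independent replicates. In whole muscle RNA, fewer cells of a type and less RNA per cell cannot be told apart.

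Of the 5 genes, Atp1b4 rose in MCK-PPARb muscle, none fell, and Atp1b1, Atp1b2, Atp1b3 and Fxyd1 did not pass the test. A gene was called at an adjusted p under 0.05 in limma, a moderated linear model fitted to all 11313 probe sets above the filter, with Benjamini-Hochberg adjustment over them. Over the 6841 genes tested, 0.731% were called, 28 higher and 22 lower. The comparison is the one in which the members were proposed, so nothing is read from the member count. Of the 9 member probe sets above the filter 1 was called, beside 0.601% of all those tested. At an unadjusted p under 0.05 in limma, 2 of the 5 genes passed, Atp1b4 and Atp1b2, beside 10.9% of all genes. With 2 arrays against 2, p = 0.333 is the smallest value an exact permutation test could give for any gene, and every call therefore depends on the variance that limma shares across the table. The median log2 difference of the 5 genes was -0.29, beside 0.01 over all genes tested. The 7 muscle fibre markers had differences below 0, with a median of -0.34 (range -0.53 to -0.22). None was called, and 1 of them, Mb, had an unadjusted p under 0.05 in limma. The groups overlapped for all of these markers but Mb. With quantile normalization Mb stayed at -0.51. The others then stood at -0.14 (Pvalb), -0.11 (Tnnt3), -0.04 (Ckm), -0.02 (Acta1), 0.09 (Myh4) and 0.09 (Tnni2).

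**Figure D1:**
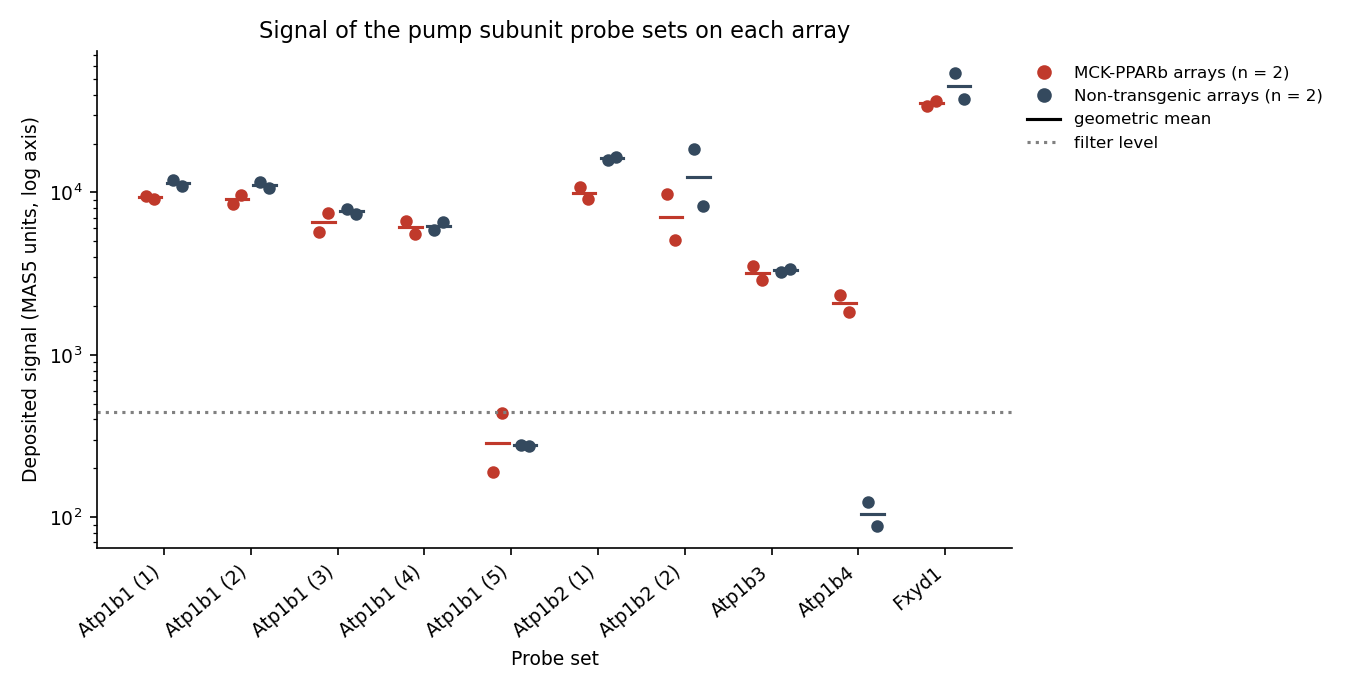
Deposited signal of the 10 probe sets on each of the 4 arrays, on a log axis, with MCK-PPARb arrays in red on the left of each pair, non-transgenic arrays in blue on the right, bars for geometric means and a dotted line at the filter level of 444 signal units. Atp1b4 lies above the line on both MCK-PPARb arrays and below it on both non-transgenic arrays; heights of different probe sets are not comparable as expression levels.

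Atp1b4, on the X chromosome, has 1 probe set on the array (1422908_at). It read 2340 and 1842 signal units in MCK-PPARb muscle, against 123 and 88.8 in non-transgenic muscle. Both MCK-PPARb arrays lay above the filter level of 444 units, the median of the probe set means, and both non-transgenic arrays far below it. The mean log2 signal was 11.02 ± 0.24 in MCK-PPARb muscle and 6.71 ± 0.34 in non-transgenic muscle (SD, n = 2 each). The fitted log2 difference was 4.31 ± 0.38 (SE, 95% interval 3.42 to 5.20), a 19.8-fold ratio with an adjusted p of 0.00538 in limma. Only 3 of the 6841 genes had a larger difference. With a mean log2 signal of 8.86, Atp1b4 passed the filter only through the MCK-PPARb arrays, where it is high. Its rank among the genes tested rests on that. With no filter its adjusted p was 0.00687 in limma. The non-transgenic signals lie where the array reads weakly, so the size is uncertain. With all signals under the filter level raised to it, the log2 difference was 2.22, a ratio of 4.67, and the call remained (adjusted p = 0.0198 in limma). The mean signal of this probe set lies below the 75th percentile of all probe sets, so a filter at that level leaves Atp1b4 untested.

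**Figure D2:**
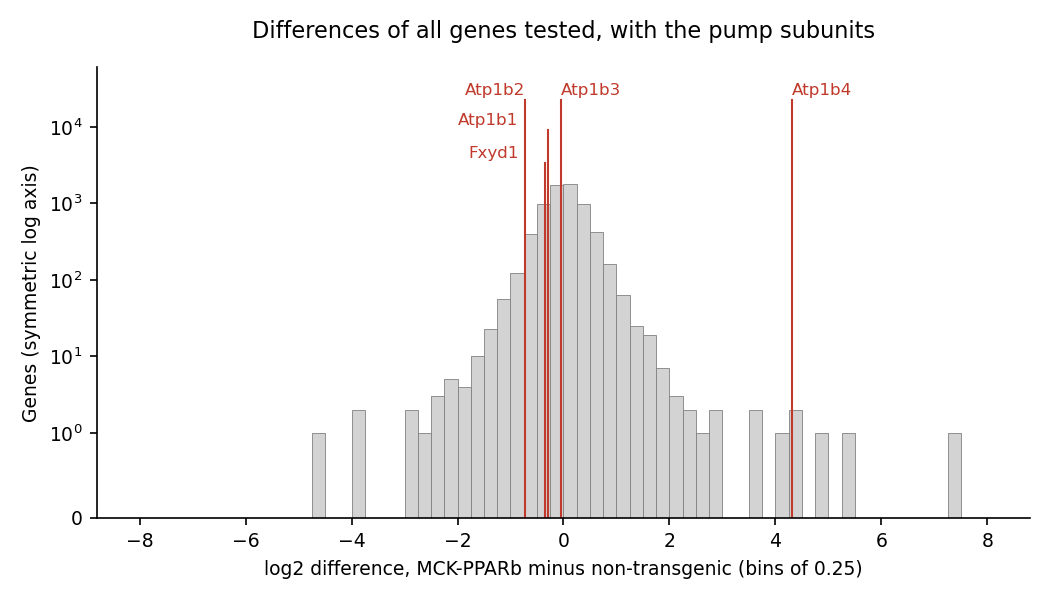
Histogram of the log2 difference, MCK-PPARb minus non-transgenic, over the 6841 genes tested, in bins of 0.25 with a symmetric log axis for the number of genes. Red lines mark the pump subunits: Atp1b4 stands at 4.31 in the right tail, and Atp1b2, Fxyd1, Atp1b1 and Atp1b3 lie between -0.72 and -0.05.

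Atp1b2 encodes the beta2 subunit, known in rodents from fast glycolytic fibres and, under the name AMOG, as an adhesion molecule of glia. It had the lowest difference of the 5 genes. Its representing probe set (1435148_at) read 10776 and 9057 in MCK-PPARb muscle, against 15936 and 16585 in non-transgenic muscle, and the groups did not overlap. The signal in MCK-PPARb muscle was 60.8% of that in non-transgenic muscle, a log2 difference of -0.72 ± 0.18 (SE, 95% interval -1.15 to -0.29) that was not called (adjusted p = 0.194 in limma). Of the 6841 genes, 269 had a lower difference. In all 16 alternatives it was below 0, from -0.84 to -0.59, and never called (adjusted p 0.0663 to 0.711).

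The other Atp1b2 probe set (1422009_at) read 9727 and 5116 in MCK-PPARb muscle, against 18609 and 8230 in non-transgenic muscle. Replicate 1 was about as far above replicate 2 in either group, and the groups overlapped. Its log2 SD was 0.66 in MCK-PPARb and 0.83 in non-transgenic muscle, against 0.18 and 0.04 for the representing probe set. The difference had the same sign, -0.81 ± 0.43 (SE), and was not called (adjusted p = 0.566 in limma). It was -0.22 without non-transgenic replicate 1 and -1.40 without non-transgenic replicate 2.

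With AMOG known from glia, the markers of Schwann cells and nerve are given beside these values. Summed over the 5 markers on the array, they read 30450 and 34170 in MCK-PPARb muscle, against 18250 and 20110 in non-transgenic muscle, opposite in direction to Atp1b2. Of the 3 tested, none was called (limma), 2 had an unadjusted p under 0.05, and the median log2 difference was 0.67. Mbp, which encodes myelin basic protein, had a difference of 0.96 and Pmp22, a myelin membrane protein, one of 0.67. Mbp was called in 3 of the 15 alternatives that tested it, among them the looser threshold of 0.1 (adjusted p = 0.0928 in limma). It was not called in the other 12, among them eBayes without the trend (0.264) and median centring (0.191). Sox10, also tested, had a difference of 0.29 ± 0.30 (SE). Mag and S100b lay below the filter, with differences of -0.13 ± 0.44 and -0.94 ± 1.20 in the fit to all probe sets. The other S100b probe set gave 1.81 ± 1.21. Mbp and Pmp22 made up most of the summed signal, so the sum does not show that the 5 markers went the same way. The part of these cells in the Atp1b2 signal was not tested.

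Atp1b1 encodes the beta1 subunit, the most widely expressed partner of the alpha subunits, and has 5 probe sets. The representing one (1439036_a_at) read 9503 and 9114 in MCK-PPARb muscle, against 11853 and 10892 in non-transgenic muscle. The groups did not overlap, and the MCK-PPARb signal was 81.9% of the non-transgenic one. The log2 difference was -0.29 ± 0.18 (SE, 95% interval -0.70 to 0.12) and not called (adjusted p = 0.621 in limma).

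A second bright probe set of Atp1b1 (1423890_x_at), whose mean log2 signal of 13.30 was just under the 13.33 of the representing one, read 8513 and 9675 in MCK-PPARb muscle, against 11631 and 10712 in non-transgenic muscle. It too gave non-overlapping groups, with a log2 difference of -0.30 ± 0.18 (SE). For 1451152_a_at the signals were 5741 and 7500 in MCK-PPARb muscle and 7943 and 7339 in non-transgenic muscle, which overlap (log2 -0.22 ± 0.20). For 1418453_a_at they were 6693 and 5536 in MCK-PPARb muscle and 5901 and 6558 in non-transgenic muscle, almost level (log2 -0.03 ± 0.20). The 4 bright probe sets thus spanned -0.30 to -0.03, each with an interval that includes 0, and the mean over them was -0.21. The dim one (1455949_at) lay below the filter at 189 and 438 in MCK-PPARb muscle and 279 and 276 in non-transgenic muscle, with a difference of 0.05 ± 0.65 in the fit to all probe sets. Probe sets of 1 gene share its RNA and are not replicates.

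Atp1b3 encodes the beta3 subunit, a broadly expressed form, and has 1 probe set (1423126_at). It read 3522 and 2897 in MCK-PPARb muscle, against 3238 and 3394 in non-transgenic muscle, with both non-transgenic values inside the MCK-PPARb range. The log2 difference was -0.05 ± 0.21 (SE, 95% interval -0.54 to 0.43, adjusted p = 0.956 in limma). Its sign turned to 0.09 without MCK-PPARb replicate 2. The interval leaves room for a change of up to 0.54 on the log2 scale downwards and 0.43 upwards.

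Fxyd1 encodes phospholemman, a substrate of protein kinases A and C that slows the pump when it is not phosphorylated. Its 1 probe set (1421374_a_at) read 33957 and 36741 in MCK-PPARb muscle, against 54084 and 37565 in non-transgenic muscle. The groups did not overlap, but MCK-PPARb replicate 2 and non-transgenic replicate 2 lay close together, and non-transgenic replicate 1 stood above the other 3 arrays. The log2 difference was -0.35 ± 0.22 (SE, 95% interval -0.87 to 0.17) and not called (adjusted p = 0.643 in limma). It was -0.09 without non-transgenic replicate 1, the array with the strongest top signals, and -0.61 without non-transgenic replicate 2.

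In all, 3 of the 5 genes had both MCK-PPARb signals below both non-transgenic ones (Atp1b1, Atp1b2 and Fxyd1), beside 20.8% of all genes tested, and Atp1b4 had both above, beside 22.2%. With so few arrays such an order is common in the table.

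**Figure D3:**
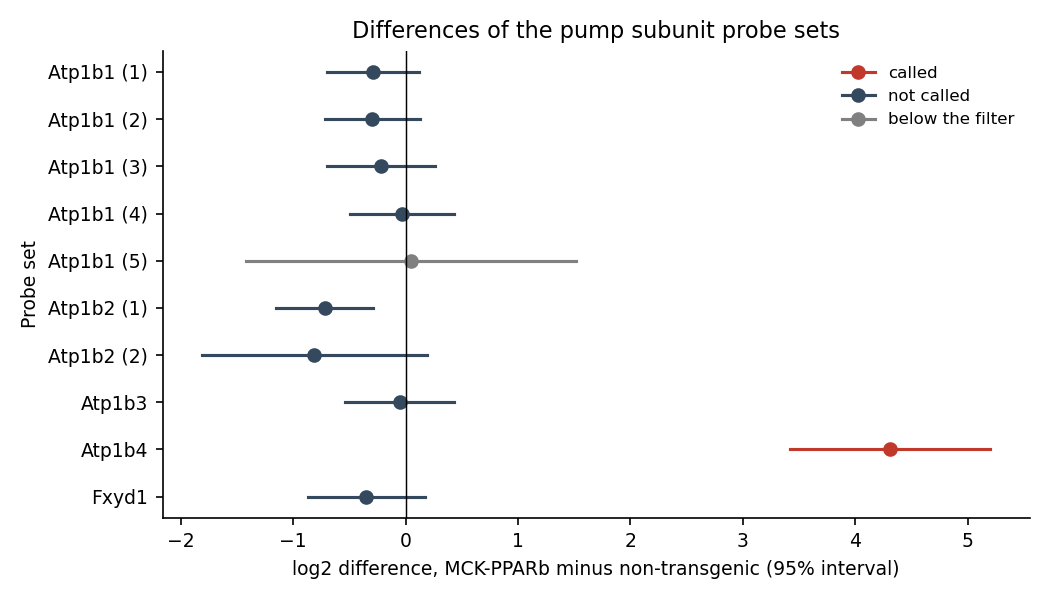
Fitted log2 difference, MCK-PPARb minus non-transgenic, of each of the 10 probe sets with its 95% interval, numbered within a gene by falling mean signal. Atp1b4 stands alone at 4.31, the first Atp1b2 probe set has an interval from -1.15 to -0.29 without a call after adjustment, and the other intervals include 0.

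**Figure D4:**
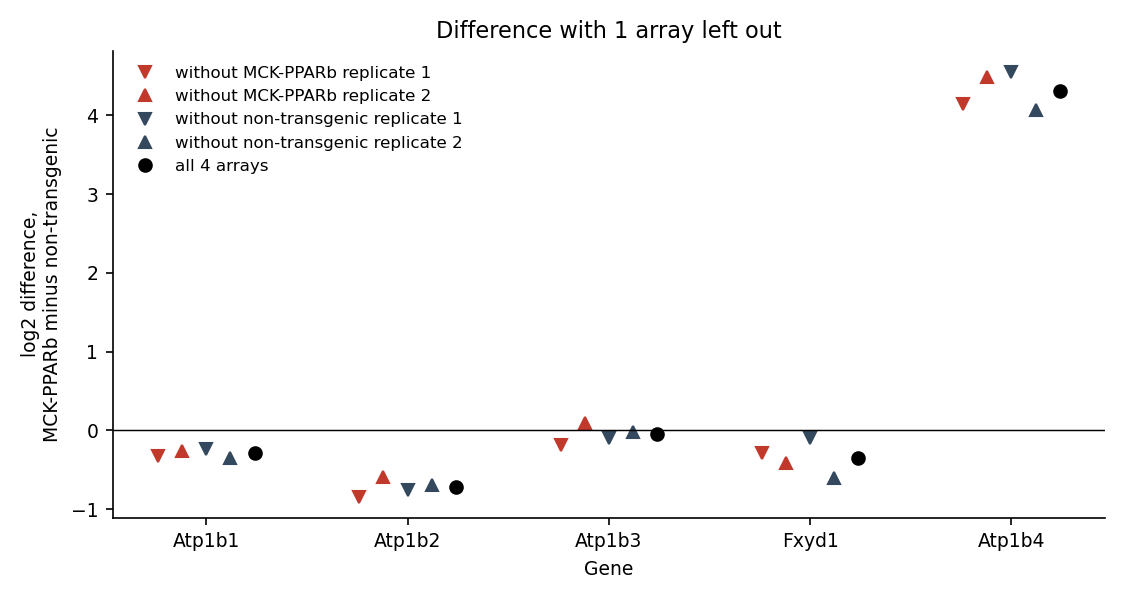
Log2 difference of each gene with all 4 arrays and with each array left out in turn. Atp1b4 stays between 4.07 and 4.55 and Atp1b2 between -0.84 and -0.59, Fxyd1 moves from -0.61 to -0.09, and Atp1b3 crosses 0.

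The other FXYD genes gave no call. Of 6 on the array, 3 passed the filter and were tested in limma, with 0 rising, 0 falling, 0 at an unadjusted p under 0.05 and a median log2 difference of 0.22. Leaving out MCK-PPARb replicate 1 gave a median of 0.10, leaving out MCK-PPARb replicate 2 one of 0.07 and leaving out non-transgenic replicate 2 one of 0.09. Fxyd6, known from brain, read 2456 and 3428 in MCK-PPARb muscle and 2718 and 2003 in non-transgenic muscle (log2 0.31 ± 0.26). Fxyd5, also called dysadherin, had a difference of -0.18 ± 0.27 and Fxyd4, a regulator known from kidney and colon, one of 0.22 ± 0.32.

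Fxyd2, the kidney gamma subunit, Fxyd3 and Fxyd7 lay below the filter on their brightest probe sets. Their signals there were 219 and 215, 294 and 387, and 113 and 50.6 in MCK-PPARb muscle, against 39.3 and 190, 240 and 516, and 15.2 and 21.9 in non-transgenic muscle. The fit to all probe sets gave SEs of 0.99, 0.58 and 1.18, too wide to read a direction. The genes of the related proton pumps, Atp4a, Atp4b and Atp12a, were also all below the filter.

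Among 7 listed exchangers and cotransporters that move sodium or chloride, 3 were tested and none was called (limma, 0 at an unadjusted p under 0.05, median log2 difference 0.45). Slc12a2, the sodium-potassium-chloride cotransporter, read 4206 and 4002 in MCK-PPARb muscle and 4767 and 5506 in non-transgenic muscle (log2 -0.32 ± 0.19). Slc12a4, a potassium-chloride cotransporter, had a difference of 0.48 ± 0.30. The median of these 3 genes was 0.07 without MCK-PPARb replicate 1 and 0.06 without non-transgenic replicate 2, and it was -0.32 with the filter at the 75th percentile, where Slc12a2 alone was left.

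Among 17 listed regulators and membrane anchors of the pump, 15 were tested and none was called (limma, 2 at an unadjusted p under 0.05), with a median log2 difference of -0.08, which was -0.19 without MCK-PPARb replicate 1, 0.03 without MCK-PPARb replicate 2 and -0.01 without non-transgenic replicate 1. Ank1, an ankyrin whose small muscle form sits in the sarcoplasmic reticulum, read 14099 and 9368 in MCK-PPARb muscle, against 27809 and 22607 in non-transgenic muscle. The groups were well apart, and the log2 difference of -1.13 ± 0.24 (SE) did not pass (adjusted p = 0.123 in limma). With arrays centred on their medians it did (-1.23, adjusted p = 0.0398). Prkce, a protein kinase C isoform, read 1658 and 1706 in MCK-PPARb muscle and 1150 and 1111 in non-transgenic muscle (log2 0.57 ± 0.24, adjusted p = 0.454).

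BetaM, the Atp1b4 product, is known to bind the transcription coregulator SKIP, encoded by Snw1, and to act on Smad7, an inhibitor of TGF-beta signalling. Of 6 listed genes around this link, all were tested and none was called (limma, 1 at an unadjusted p under 0.05, median log2 difference 0.00, and -0.20 without non-transgenic replicate 1). Snw1 had a difference of 0.02 ± 0.26, whose sign turned with median centring and with MCK-PPARb replicate 2 or non-transgenic replicate 1 left out. Smad7 read 892 and 613 in MCK-PPARb muscle and 799 and 1127 in non-transgenic muscle (log2 -0.36 ± 0.34). Smad2 and Smad3, the signal carriers of the TGF-beta pathway, had differences of 0.71 ± 0.29 and -0.81 ± 0.37 (adjusted p = 0.454 and 0.505 in limma).

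Since Atp1b4 is known as a perinatal gene in muscle, 14 genes of perinatal or denervated muscle were listed, with results of several of them known beforehand. Of 9 tested, 2 rose (Sln and Igf2), 1 fell (Actc1) and 6 did not pass, beside 0.731% called of all genes tested. The median log2 difference was 0.92, beside 0.01 over all genes tested. Since the list was written with some of these results known, nothing is read from the count or the median. The median was 0.25 without MCK-PPARb replicate 2 and 2.79 with the filter at the 75th percentile. Sln, which encodes the calcium pump inhibitor sarcolipin, had a difference of 7.49 ± 0.42, Igf2, a fetal growth factor, one of 4.27 ± 0.18, and Actc1, the cardiac actin gene expressed in developing skeletal muscle, one of -4.54 ± 0.41. The called genes therefore did not share 1 direction.

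Chrna1, the alpha subunit of the muscle acetylcholine receptor, read 3362 and 3100 in MCK-PPARb muscle, against 1369 and 1240 in non-transgenic muscle. The groups were well apart, but the log2 difference of 1.31 ± 0.22 (SE) did not pass (adjusted p = 0.0606 in limma). It passed in 7 of the 16 alternatives, among them robust eBayes (adjusted p = 0.0481 in limma) and the looser threshold of 0.1, applied to the same adjusted p. It did not pass in the other 9, among them eBayes without the trend (adjusted p = 0.163). The log2 difference ran from 1.20 to 1.38 over the alternatives.

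Of the developmental myosin heavy chains, Myh8, the perinatal form, read 657 and 834 in MCK-PPARb muscle and 260 and 407 in non-transgenic muscle (log2 1.19 ± 0.39, adjusted p = 0.329 in limma). Myh3, the embryonic form, lay below the filter as a mean over all arrays, at 1201 and 1561 in MCK-PPARb muscle and 59.9 and 183 in non-transgenic muscle. Its difference in the fit to all probe sets was 3.71 ± 0.63 and not called (adjusted p = 0.0631 in limma).

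**Figure D5:**
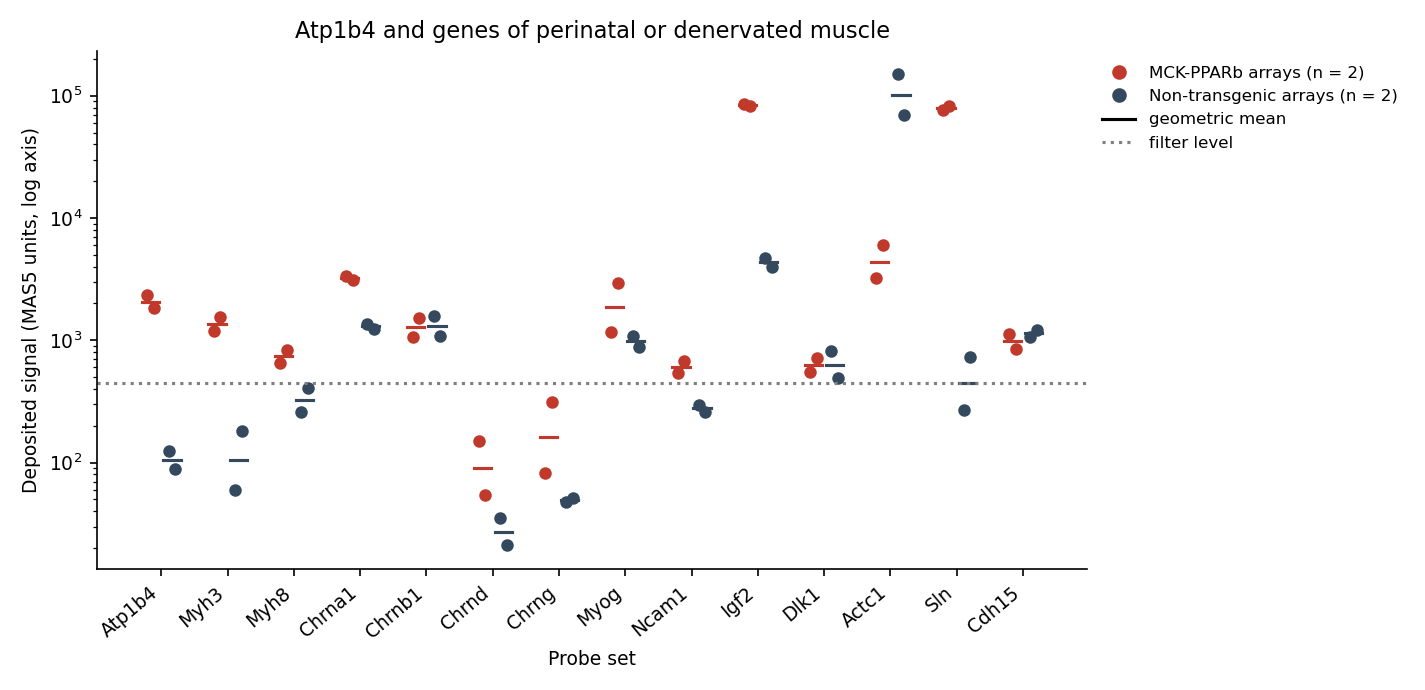
Deposited signal on a log axis of Atp1b4 and the 13 genes of perinatal or denervated muscle on the array, each by its probe set of highest mean, with MCK-PPARb arrays in red on the left of each pair and non-transgenic arrays in blue on the right. Sln and Igf2 are far higher and Actc1 far lower in MCK-PPARb muscle. Myh3, Myh8 and Ncam1, like Atp1b4, lie above the dotted filter level only in MCK-PPARb muscle. Chrnb1 (log2 difference -0.03), Dlk1 (-0.01) and Cdh15 (-0.22) lie above it on all arrays, with overlapping groups.

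The pattern of Atp1b4 over the 4 arrays was set beside that of the 6836 tested genes outside the 5 members by Pearson's r of the log2 signals, with n = 4 arrays, as a measure of likeness only. The 5 most alike were Chrna1 (r = 0.99998), Grn (0.99975), which encodes progranulin, Tmed9 (0.99963), a protein of the early secretory pathway, Arap1 (0.99934), a regulator of small GTPases, and Mtfr1 (0.99921), a mitochondrial fission regulator. Their choice by r with Atp1b4 fixed that all 5 were higher on both MCK-PPARb arrays. The log2 differences were 1.31, 0.31, 0.31, 0.55 and 0.54, and none was called. Over 4 arrays r takes in the group difference and the order within groups and not the size, and 74 genes had an r above 0.99.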

How the data were processed

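The deposited values are linear signal intensities, 1 for each probe set on each array. MAS5 and GCOS are the tools in the submitters' processing notes, with versions not given in the sources used here. After trimming 2% at each end the mean was 1501 on every array, so the authors had scaled the arrays to a common level before they were deposited. No detection calls were used, and the number of arrays limits the precision.

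From these values, 64 control probe sets were left out, symbols were taken from the platform annotation and updated through the gene number with the gene table of assembly GRCm38.p6, and signals were put on the log2 scale without a pseudocount. Of 22626 probe sets, 20380 had 1 symbol, 691 several and 1555 none. The filter required a mean log2 signal above the median of all probe sets, which left 11313 probe sets and 6841 genes. The test was limma's, version 3.58.1 under R 4.3.3 (lmFit, then eBayes with an intensity trend, 2-sided), and p-values were adjusted by Benjamini-Hochberg over the probe sets that passed the filter. Probe sets under the filter were taken from the same fit to all probe sets. The fit was tested on simulated data.

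The members, the gene lists and the tests were chosen with earlier results of these data known. Named genes were the 5 members, all other FXYD genes, of each list of exchangers, regulators, Atp1b4 partners and perinatal genes those called and the 2 of smallest p among the rest, the 5 genes most like Atp1b4 and Ppard. Snw1, Smad7, Myh3, the other perinatal genes named only in a figure caption, the proton pump genes and the cell type markers named were added after their values were seen. Promoter windows came from RefSeq, with a window for 4 of the 5 members.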

Additional observations from a re-analysis of the deposited data

How the results depend on the processing

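Results were recomputed with a pseudocount of 33.9, with quantile normalization or arrays centred on their medians, with no filter or one at the 75th percentile, and with every signal under the filter level set to that level. The other alternatives were eBayes robust or without the trend, a replicate block, an adjusted p under 0.1, each array left out, probe sets ending in _s_at, _x_at or _a_at left out, and a mean over the probe sets of each gene. Atp1b4 kept its call in the 15 that tested it, with a log2 difference of 2.22 to 4.55. With the filter at the 75th percentile 0 of the 5 members were called, since Atp1b4 is then not tested. Of all probe sets, 68 were called, against 116 with median centring, 21 without the trend, 150 at an adjusted p under 0.1 and 377 with the replicate block. With 1 array left out the count ran from 36 to 159: it was 36 without MCK-PPARb replicate 1, 144 without non-transgenic replicate 1 and 159 without non-transgenic replicate 2. The cause was not tested. Replicate numbers are shared by the groups, and same-numbered arrays deviated together at r = 0.276, but with 2 pairs the numbers are not taken to pair the mice. The replicate block raised the genes called on the other lists from 3 to 5, adding Ank1 (adjusted p = 0.00489) and Chrna1 (0.0046), and called the markers Mbp (0.0151) and Adipoq (0.0256) and the second Atp1b2 probe set (log2 -0.81, adjusted p = 0.0375). Differences near 0 changed sign: Atp1b3 at 0.09 without MCK-PPARb replicate 2 (-0.19 to 0.09 with 1 array left out), the Atp1b1 probe set 1418453_a_at at 0.11 and 0.04 without MCK-PPARb or non-transgenic replicate 2 (-0.17 to 0.11), and Snw1 at -0.09 with median centring and at -0.12 and -0.28 without MCK-PPARb replicate 2 or non-transgenic replicate 1 (-0.28 to 0.31). Median centring moved the median difference of all genes to -0.10, against 0.01, and under it Atp1b1, Atp1b2, Atp1b3 and Fxyd1 kept their sign.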

Other observations

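Adipocyte markers, summed over the 5 on the array, read 12480 and 12390 in MCK-PPARb muscle, against 9561 and 14300 in non-transgenic muscle, and the groups overlapped. Of the 3 tested none was called (limma, 2 at an unadjusted p under 0.05), with log2 differences of 1.03 for Adipoq, 1.02 for Retn and -0.23 for Fabp4. The 6 endothelial markers had a median log2 difference of -0.09, the 5 fibroblast markers -0.13, the 5 macrophage markers 0.12 and the 3 smooth muscle markers tested 0.06, with none called in limma. At an unadjusted p under 0.05 in limma stood 1 of them, the macrophage marker Adgre1 (log2 0.83 ± 0.26, SE). The 3 B cell markers on the array all lay below the filter. Of the red cell markers 1 was tested, at 0.17.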
